A study of Mus musculus with 6 samples.

Results

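Serpins are a large family of proteins with a common fold, most of which inactivate serine or cysteine proteases by offering an exposed loop as bait and then trapping the enzyme. Secreted members restrain clotting, fibrinolysis, complement and inflammatory proteases, and clade B members stay mostly inside cells, where they protect the cell from its own or from incoming proteases. A few members inhibit no protease and act as chaperones or signalling proteins. In secretory epithelia such as the prostate, serpins stand beside abundant secreted and membrane proteases.

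All mouse genes of serpin clades A to I were taken by gene symbol, that is "Serpin" followed by a clade letter, a number and at most 1 further letter. This gave 62 of the 24346 genes in the deposited tables, with 81 of the 34535 transcripts. Clade B had 27 members and clade A 24. Clade E had 3, clades F and I had 2 each, and clades C, D, G and H had 1 each. Expression was measured by RNA sequencing of prostate luminal cells, the secretory cells that line the gland, sorted by flow cytometry from C57BL/6 mice aged 4 months. The tested mice (3 libraries, called CSF1) over-express mouse Csf1 from a transgene that the rat probasin promoter drives in the luminal cells of the prostate. Wild-type (WT) littermates without the transgene gave the other 3 libraries. Both groups carry the title numbers 3, 5 and 8. No label says whether each library is a separate animal, and the p-values then measure only the spread between these samples. The comparison asks what forced CSF1, a growth factor of macrophages, changes in luminal cells.

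Levels are FPKM, mapped fragments scaled by transcript length and by library size, summed over the transcripts of a gene. Coverage per unit of FPKM, which grows with sequencing depth, was 4.17 to 5.01 in CSF1 and 2.72 to 3.50 in WT, so the CSF1 libraries were deeper. Csf1 itself had 1082, 1326 and 1678 FPKM in CSF1 replicates 3, 5 and 8, against 1.54, 2.25 and 3.98 FPKM in WT. The luminal keratin genes Krt8 and Krt18 lay at or above 1050 and 1735 FPKM in every library. Of 11 luminal markers 3 were higher in CSF1, 1 was lower (Hoxb13, log2 change -0.84) and 7 did not pass the test. Of all tested genes 24.9% were higher and 7.47% were lower.

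The promoters below belong to some of the tested serpins, and show which regulatory letters stand before their start sites. Each runs 5′ to 3′ along its gene's strand, from 250 bases before the annotated start to 50 after it (RefSeq, GRCm38.p6), and the capitals mark matches on either strand to letters recognised by 4 factor classes: STAT (ttcnnngaa), interferon regulatory factors (gaaa, any 2 bases, gaaa, called ISRE), NF-kB (ggg, any 2 bases, tttcc) and AP-1 (tgantca). No match overlapped another in the windows shown, and n stands for any base.
Serpina3g, chr12:104235897-104236196, plus strand: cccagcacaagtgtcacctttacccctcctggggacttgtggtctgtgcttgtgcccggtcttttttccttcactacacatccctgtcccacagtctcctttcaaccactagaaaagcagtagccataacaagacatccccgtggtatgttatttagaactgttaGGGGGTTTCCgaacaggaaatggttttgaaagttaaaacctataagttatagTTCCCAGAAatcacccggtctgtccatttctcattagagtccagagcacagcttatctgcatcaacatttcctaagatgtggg
Serpina3n, chr12:104406458-104406757, plus strand: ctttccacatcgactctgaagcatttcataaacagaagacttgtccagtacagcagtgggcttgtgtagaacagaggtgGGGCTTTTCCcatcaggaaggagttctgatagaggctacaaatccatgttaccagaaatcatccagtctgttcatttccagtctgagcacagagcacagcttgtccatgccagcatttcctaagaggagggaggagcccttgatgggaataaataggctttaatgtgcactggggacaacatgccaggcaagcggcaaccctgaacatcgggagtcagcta
Serpinb5, chr1:106860925-106861224, plus strand: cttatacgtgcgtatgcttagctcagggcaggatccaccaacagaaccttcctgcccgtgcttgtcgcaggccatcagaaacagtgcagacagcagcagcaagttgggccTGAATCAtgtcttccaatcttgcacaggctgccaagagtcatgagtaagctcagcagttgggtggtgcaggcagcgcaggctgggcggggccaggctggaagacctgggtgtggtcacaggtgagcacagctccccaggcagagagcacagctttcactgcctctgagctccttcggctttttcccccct
Serpinb8, chr1:107589756-107590055, plus strand: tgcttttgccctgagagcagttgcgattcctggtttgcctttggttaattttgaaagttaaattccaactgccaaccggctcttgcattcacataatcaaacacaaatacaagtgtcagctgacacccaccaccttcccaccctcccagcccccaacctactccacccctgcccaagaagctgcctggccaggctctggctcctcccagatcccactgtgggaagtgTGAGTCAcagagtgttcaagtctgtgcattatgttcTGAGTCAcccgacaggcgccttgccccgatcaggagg
Serpinb11, chr1:107362064-107362363, plus strand: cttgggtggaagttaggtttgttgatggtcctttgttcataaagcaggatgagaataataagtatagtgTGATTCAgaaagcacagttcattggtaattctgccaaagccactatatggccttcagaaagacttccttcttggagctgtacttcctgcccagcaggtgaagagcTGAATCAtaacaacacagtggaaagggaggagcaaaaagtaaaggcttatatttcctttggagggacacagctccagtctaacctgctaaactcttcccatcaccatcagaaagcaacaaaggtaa
Serpinb6a, chr13:33936034-33936333, minus strand: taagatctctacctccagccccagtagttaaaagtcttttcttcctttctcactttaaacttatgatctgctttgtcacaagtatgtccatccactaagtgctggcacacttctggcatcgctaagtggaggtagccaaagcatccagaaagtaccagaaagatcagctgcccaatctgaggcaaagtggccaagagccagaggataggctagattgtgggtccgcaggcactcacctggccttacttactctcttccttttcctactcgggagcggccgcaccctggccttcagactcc

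The first pair are clade A genes of chromosome 12. The levels of Serpina3n differed widely between the groups, while Serpina3g was at 0.395 to 3.89 FPKM in CSF1 and listed at 0 in WT. The next 3 are clade B genes of 1 cluster on chromosome 1, and all of them rose. The last is a window of Serpinb6a, which had the smallest change of the 13 tested members without rescaling, and it holds none of the 4 motifs. The window of another annotated Serpinb6a start has STAT and ISRE letters, and which start the transcript above 0 FPKM uses was not tested. The windows of Serpine2, Serpinf1 and Serpinh1, not printed here, also hold none of the 4 motifs, though these genes rose.

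Serpinb6a dominated the family's transcripts in WT, and 3 genes shared most of them in CSF1. Together the 62 genes had 631, 791 and 592 FPKM in CSF1 replicates 3, 5 and 8, against 189, 185 and 215 FPKM in WT. Serpinb6a alone held 18.1% to 24.8% of this sum in CSF1 libraries, against 74.7% to 81.9% in WT libraries. Serpinb1a held 19.3% to 29.8% in CSF1, against 3.32% to 5.07% in WT. Together with Serping1 they made up 66.5% to 70.01% in CSF1 and 81.7% to 87.4% in WT. Without Serpinb6a the family summed to 445 to 648 FPKM in CSF1 and to 33.4 to 51.2 FPKM in WT. The groups overlapped in neither sum. Clade B, with Serpinb6a, made up 46.3% to 72.4% of the family in CSF1, against 92.2% to 94.7% in WT. The single clade G gene, Serping1, held 14.7% to 29.2% in CSF1 and 1.87% to 3.32% in WT. Summed clade A levels were 19.8, 39.1 and 22.7 FPKM in CSF1, against 1.09, 0.493 and 1.27 FPKM in WT. These sums are descriptions with no test, since the members were chosen with results known.

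**Figure D1:**
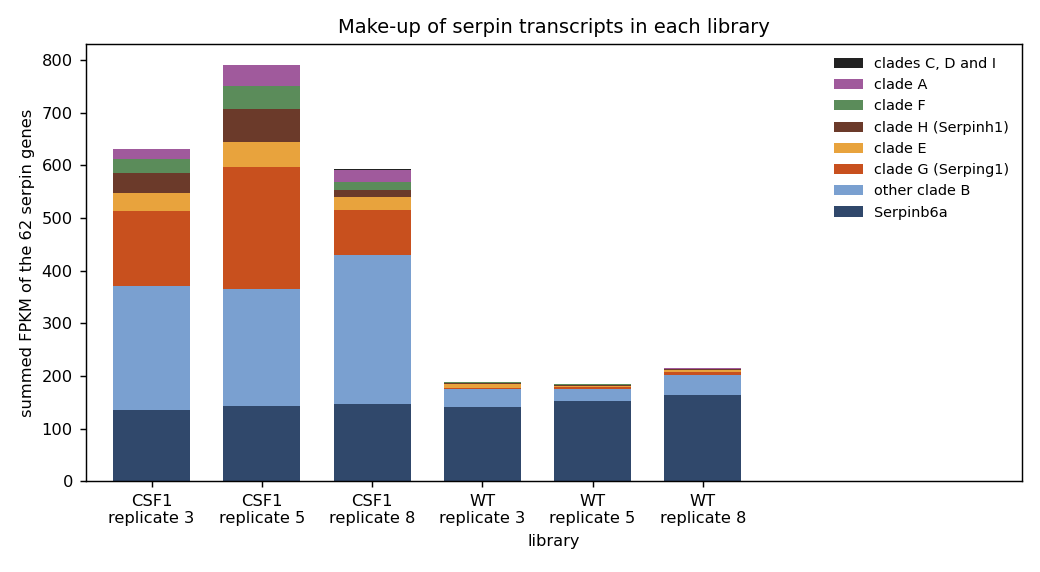
Stacked bars give the summed FPKM of the 62 serpin genes in each of the 3 CSF1 and 3 WT libraries, split into Serpinb6a, the rest of clade B and the other clades (C, D and I together). The Serpinb6a block has nearly the same height in all libraries (135 to 164 FPKM), while the rest of the family sums to 445 to 648 FPKM in CSF1 and 33.4 to 51.2 FPKM in WT.

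Of the 62 members, 25 were listed at 0 in all 6 libraries, including Serpini2, all 4 Serpinb3 genes and Serpina5. A further 20 stayed under 1 FPKM in every library, the highest of them at 0.789 FPKM. The test took the 13 members whose mean across the 6 libraries reached 1 FPKM, and 4 others reached 1 FPKM in some library only. By limma with Benjamini-Hochberg adjustment over all 10951 tested genes, 11 of the 13 were higher in CSF1 and 0 were lower. Over all tested genes 24.9% were higher, 7.47% were lower and 32.4% were called in either direction. The median log2 change of the 13 was 2.08, on the log2(FPKM + 1) scale, and that of all tested genes 0.17. Serpina3n, Serpina3g and Serpinb2 had a WT mean under 1 FPKM and passed the filter through their CSF1 level. Of the other 10, 9 rose and Serpinb6a did not pass. In the 11 that rose, every CSF1 library lay above every WT library, as in 34.7% of all tested genes, while the reverse order held in 13.1% of them.

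**Figure D2:**
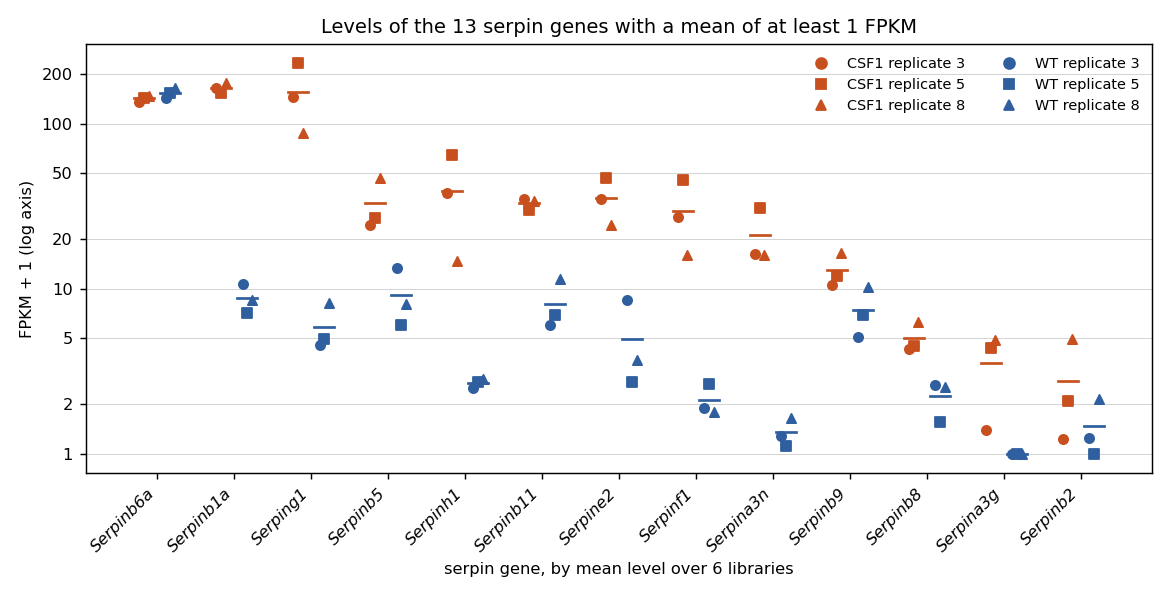
Points are FPKM + 1 on a log axis for the 13 tested serpin genes, with CSF1 (orange) left of WT (blue), marker shape for the title number and a bar at the group mean. The groups overlap in Serpinb6a and Serpinb2 and are apart in the other 11 genes.

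Among the secreted inhibitors, Serping1 encodes C1 inhibitor, which blocks the first proteases of complement and of the contact system (chromosome 2, 84765360 to 84775444). Serping1 had 143, 231 and 86.7 FPKM in CSF1 replicates 3, 5 and 8, against 3.53, 3.95 and 7.14 FPKM in WT. Every CSF1 library lay above every WT library. Its mean was 154 ± 72.5 FPKM in CSF1 and 4.87 ± 1.98 FPKM in WT (SD, n = 3 each), 31.5-fold higher. The log2 change was 4.66 ± 0.35 (SE; limma adjusted p = 4.79e-05). Of the complement proteases it blocks, C1s1 and C1ra rose, while Masp1 stayed at or below 0.283 FPKM and was not tested, and Masp2 was listed at 0 in every library. C1s1 was at 20.6, 27.7 and 12.3 FPKM in CSF1, against 0.993, 0.498 and 1.43 FPKM in WT (log2 change 3.38), and C1ra had a log2 change of 2.49. Serping1, C1s1 and C1ra were all highest in CSF1 replicate 5 and lowest in CSF1 replicate 8.

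Serpina3n (chromosome 12, 104406646 to 104414334) encodes an acute-phase inhibitor of leukocyte elastase and granzyme B. It was at 15.1, 29.97 and 14.9 FPKM in CSF1, against 0.285, 0.107 and 0.648 FPKM in WT, and its log2 change was 3.91 ± 0.29 (SE; limma adjusted p = 4.36e-05). Every CSF1 library lay far above the WT libraries. Serpina3g (chromosome 12, 104236147 to 104241939) encodes Spi2A, which acts inside cells and is induced by interferon gamma in macrophages. Its CSF1 libraries had 0.395, 3.36 and 3.89 FPKM, and it was listed at 0 in every WT library. The CSF1 libraries differed among themselves in Serpina3g by 9.86-fold, and the fitted log2 change of 1.63 ± 0.45 (SE; limma adjusted p = 0.0232) depends on the pseudocount, being 4.25 with 0.1 and 0.56 with 5. Its call was lost when any WT library was left out (limma adjusted p = 0.0602 to 0.0662) with quantile normalization (0.0639) and without both libraries numbered 5 (0.154).

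Other Serpina3 genes of the chromosome 12 cluster lay below the filter. Serpina3f was at 0.907, 2.91 and 1.73 FPKM in CSF1 and Serpina3m at 1.22, 1.28 and 0.539 FPKM, and both were listed at 0 in all WT libraries. Serpina3c, Serpina3h and Serpina3i, each below 1 FPKM, were likewise above 0 in every CSF1 library and listed at 0 in every WT library. The looser pattern, every CSF1 library above every WT library at any WT level, held in 28.6% of all genes above 0 FPKM in some library. The share of genes also listed at 0 in every WT library was not counted. Serpina3a, Serpina3b and Serpina3j were listed at 0 in all 6 libraries, and Serpina9, also in the cluster, was at 0.761, 0.459 and 0.433 FPKM in CSF1 and 0.783, 0.386 and 0.621 FPKM in WT, with overlapping groups. Of the 23 clade A genes on chromosome 12, which span 103616675 to 104414334, 2 had a mean of at least 1 FPKM. The 5 α1-antitrypsin genes Serpina1a to Serpina1e lay at or below 0.0309 FPKM in every library. Of 6 hepatocyte markers, for the cells that make most circulating clade A serpins, 2 were tested and 1 rose, with sums of 26.9 to 66.1 FPKM in CSF1 and 5.17 to 7.47 FPKM in WT, while Alb did not exceed 0.196 FPKM and Apob 0.00457 FPKM. The marker that rose was Trf, the transferrin gene, at 23.4, 27.2 and 61.6 FPKM in CSF1 and 1.02, 1.20 and 2.71 FPKM in WT, and Ttr, the transthyretin gene, had a log2 change of -0.34 and did not pass (limma adjusted p = 0.219).

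Members of this cluster resemble each other in sequence, and 50-base stretches shared with other serpin genes made up 16.0% of the Serpina3g transcript, 10.7% of the longest Serpina3f transcript, 19.1% of Serpina3m and 6.90% of Serpina3n. The share was 15.4% for Serpina3i and 4.25% for Serpina3c, and Serpina3h was the gene sharing most with Serpina3g and Serpina3i. How the authors' software split reads among them is not given. The low levels of Serpina3c, Serpina3f, Serpina3g, Serpina3h, Serpina3i and Serpina3m are therefore uncertain. The shares were 3.42% for Serpinb1a, 1.94% for the Serpinb6a transcript above 0 FPKM and 0.388% for Serpinb9. No such stretch was found for Serping1, Serpinh1, Serpinf1, Serpine2, Serpinb5, Serpinb8 or Serpinb11. The Serpina3c and Serpina3n promoter windows, set side by side without gaps, were identical at 91.7% of bases.

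Serpine2 encodes protease nexin-1, which inhibits thrombin and the plasminogen activators. Serpine2 (chromosome 1, 79794317 to 79858665) was at 33.7, 45.9 and 23.5 FPKM in CSF1, against 7.47, 1.72 and 2.68 FPKM in WT. Its log2 change was 2.96 ± 0.41 (SE; limma adjusted p = 0.000905), and its WT replicate 3 stood above the other WT libraries. The genes of the plasminogen activators differed in level. Plat, the gene of tissue plasminogen activator, rose to 77.7, 105 and 112 FPKM in CSF1, against 5.03, 5.26 and 7.18 FPKM in WT (log2 change 3.86; limma adjusted p = 5.94e-06), while Plau, the urokinase gene, did not exceed 1.56 FPKM in any library. Plaur, the urokinase receptor gene, rose to 310, 203 and 345 FPKM in CSF1, against 35.6, 48.95 and 77.4 FPKM in WT (log2 change 2.42).

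Serpinh1 and Serpinf1 belong to the members that inhibit no protease. Serpinh1 (chromosome 7, 99345375 to 99353239) encodes HSP47, the collagen chaperone of the endoplasmic reticulum, and was at 36.96, 63.3 and 13.7 FPKM in CSF1, against 1.49, 1.70 and 1.82 FPKM in WT. Its log2 change was 3.63 ± 0.45 (SE; limma adjusted p = 0.000553), and the spread among CSF1 libraries was 4.62-fold. Serpinf1 (chromosome 11, 75410029 to 75422623) encodes pigment epithelium-derived factor, a secreted protein that restrains vessel growth. It had 26.3, 44.3 and 15.1 FPKM in CSF1, against 0.881, 1.65 and 0.775 FPKM in WT, and its log2 change was 3.71 ± 0.35 (SE; limma adjusted p = 0.000139). Of 4 listed Serpinh1 transcripts, 1 carried all of the level in CSF1 replicates 3 and 5 and 10.4 of the 13.7 FPKM in CSF1 replicate 8.

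Collagen genes, whose products are the clients of HSP47, rose, while no listed collagen-modifying enzyme was called higher. Of 11 collagen genes and collagen-modifying enzymes, all tested, 5 rose, 1 fell and 5 did not pass. The median log2 change over both kinds together was 0.64. Of all tested genes 24.9% were higher and 7.47% were lower. The 5 that rose were the collagen genes, such as Col1a2 at 29.98, 53.8 and 8.64 FPKM in CSF1 and 0.210, 0.967 and 0.977 FPKM in WT. P4hb, a subunit of the collagen prolyl hydroxylase that also folds other secreted proteins, fell to 523, 637 and 503 FPKM in CSF1, against 900, 1158 and 1322 FPKM in WT (log2 change -1.01; limma adjusted p = 0.00272).

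Of the 7 tested clade B genes 5 rose, beside 24.9% of all tested genes, and Serpinb6a and Serpinb2 did not pass the test. Serpinb1a (chromosome 13, 32842092 to 32853206) is the mouse counterpart of the human leukocyte elastase inhibitor gene and had 164, 152 and 176 FPKM in CSF1, against 9.60, 6.15 and 7.53 FPKM in WT. The CSF1 libraries differed among themselves by only 1.16-fold. Its log2 change was 4.25 ± 0.17 (SE) and its mean 21.2-fold higher, with the smallest limma adjusted p of the family (2.41e-06). It was the most abundant serpin in CSF1 by mean FPKM, and number 3 in WT. Serpinb1b and Serpinb1c, its close relatives on chromosome 13, were listed at 0 in all 6 libraries.

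Serpinb6a (chromosome 13, 33917918 to 34002794), whose human counterpart inhibits cathepsin G, was at 135, 143 and 147 FPKM in CSF1, against 141, 152 and 164 FPKM in WT. The groups overlapped. Its log2 change was -0.10 ± 0.12 (SE; 95% interval -0.37 to 0.17; limma adjusted p = 0.556). With other scalings of the libraries it was called lower, with a log2 change of -0.30 under quantile normalization, -0.31 under median-ratio scaling and -0.30 after rescaling to genes outside the 5 most abundant (limma adjusted p = 0.0349, 0.0415 and 0.0464). Exons of its transcript share 277 bases with 1110046J04Rik on the opposite strand, which was listed at 0 in every library. Its neighbour Serpinb6b stayed below the filter, at 0.743, 0.206 and 1.68 FPKM in CSF1 and 0.209, 0.104 and 0.156 FPKM in WT, with overlapping groups.

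Serpinb9 (chromosome 13, 32997061 to 33017955) encodes an inhibitor of granzyme B that shields cells from cytotoxic lymphocytes. It was at 9.46, 10.9 and 15.4 FPKM in CSF1, against 4.07, 5.89 and 9.24 FPKM in WT. The lowest CSF1 library lay just above the highest WT library. The log2 change was 0.84 ± 0.28 (SE; limma adjusted p = 0.0486), and the call was lost in 14 of 22 alternatives, among them leaving out any CSF1 library, or WT replicate 3 or 5 (limma adjusted p = 0.0515 to 0.136). Gzmb, the granzyme B gene, was at 1.52, 1.74 and 5.24 FPKM in CSF1, against 0.756, 1.12 and 0.979 FPKM in WT, and did not pass (limma adjusted p = 0.0939).

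The chromosome 1 cluster holds 12 clade B genes between 106861175 and 107608978, of which 4 had a mean of at least 1 FPKM. Serpinb5 (106861175 to 106883348) encodes maspin, a non-inhibitory serpin of basal and other epithelial cells, and was at 23.4, 25.9 and 46.1 FPKM in CSF1, against 12.2, 5.00 and 7.04 FPKM in WT (log2 change 1.87 ± 0.33, SE; limma adjusted p = 0.0032). Serpinb11 (107362314 to 107380475) was at 33.9, 28.8 and 33.03 FPKM in CSF1, against 4.98, 5.88 and 10.4 FPKM in WT (log2 change 2.08 ± 0.24, SE; limma adjusted p = 0.000362). Its CSF1 libraries were close to each other, at 1.18-fold between highest and lowest. Serpinb8 (107589926 to 107608978), whose human counterpart inhibits the proprotein convertase furin, was at 3.32, 3.47 and 5.26 FPKM in CSF1, against 1.61, 0.559 and 1.55 FPKM in WT (log2 change 1.18 ± 0.27, SE; limma adjusted p = 0.00989). Its call was lost with quantile normalization (limma adjusted p = 0.0649).

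Serpinb2 (107500892 to 107525600) encodes PAI-2, an inhibitor of urokinase made by activated macrophages and by epithelia. It was at 0.218, 1.08 and 3.95 FPKM in CSF1 and 0.249, 0 and 1.14 FPKM in WT, and the groups overlapped. Its log2 change was 0.74 ± 0.51 (SE; limma adjusted p = 0.301). The highest value of each group was in its library numbered 8. The remaining 8 genes of the cluster, among them Serpinb7, Serpinb12 and Serpinb13, did not exceed 0.188 FPKM.

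**Figure D3:**
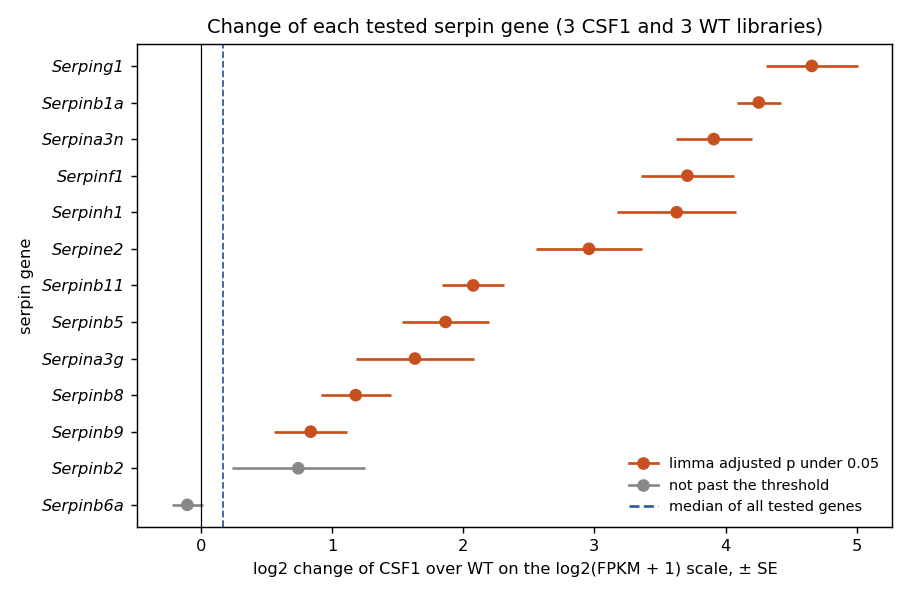
Points are log2 changes of CSF1 over WT on the log2(FPKM + 1) scale with SE bars for the 13 tested serpin genes, coloured by whether limma's adjusted p lay under 0.05, with the median of all tested genes (0.17) as a dashed line. Estimates run from -0.10 for Serpinb6a to 4.66 for Serping1.

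The promoter windows differed by cluster. Of the 62 members, 52 matched a window by symbol. AP-1 letters were found in 7 of 11 matched clade B genes on chromosome 1. These were the 4 that reached a mean of 1 FPKM, of which Serpinb2 did not pass the test, and Serpinb7, Serpinb10 and Serpinb12, at or below 0.188 FPKM. The same letters were in 4 of 17 matched clade A genes on chromosome 12 (Serpina1a to Serpina1d, at or near 0 FPKM), and in 0 of 14 clade B genes on chromosome 13. Over all 27025 genes with a window, 8.97% held them. NF-kB letters were in the windows of Serpina3g, Serpina3i and Serpina3n, 3 of 17 matched clade A genes on chromosome 12, against 1.89% of all genes. STAT letters stood in 8 of 52 serpins and 9.55% of all genes, and ISRE letters in 3 of 52 serpins and 3.99% of all genes. Of the 9 matched members that rose, Serpina3g alone held the STAT letters and Serpinb9 alone the ISRE letters. Serpine2, Serpinf1 and Serpinh1, also among those 9, held none of the 4 motifs. A match is a run of letters and not a measured binding site, and genes of 1 cluster share ancestry, so they are not independent.

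Within the CSF1 group, the serpins differed in which library was highest. Serpinh1, Serpinf1, Serping1, Serpine2 and Serpina3n were all highest in CSF1 replicate 5 and lowest in CSF1 replicate 8, though Serpina3n differed little between replicates 3 and 8. That order held for 8 of 10 fibroblast and smooth muscle markers and for 23.7% of all 10960 genes averaging 1 FPKM or more, with Col1a1 at 13.2, 25.5 and 6.75 FPKM in CSF1 replicates 3, 5 and 8, against 0.0489, 0.414 and 0.467 FPKM in WT. Serpinb5, Serpinb8, Serpinb9, Serpina3g, Serpinb2 and, within a narrow range, Serpinb6a were highest in CSF1 replicate 8 and lowest in CSF1 replicate 3. That order held for 13 of 16 macrophage markers, but not for Mrc1, Aif1 and Ptprc, and for 20.9% of those 10960 genes. Among the 13, Lyz2 was at 337, 400 and 1371 FPKM in CSF1, against 6.69, 10.1 and 61.6 FPKM in WT. Of 7 basal markers 5 were highest in CSF1 replicate 8, as were 34.2% of those 10960 genes, while Trp63 was lowest there, at 1.22, 1.12 and 0.338 FPKM in CSF1, and Dst was highest in CSF1 replicate 3. Among the 5, Krt5 was at 17.6, 16.3 and 29.8 FPKM in CSF1 and 2.33, 2.19 and 3.44 FPKM in WT. Serpinb1a and Serpinb11 varied little among the CSF1 libraries. So did the basal gene Krt15 at 304 to 356 FPKM and the luminal gene Cdh1 at 185 to 191 FPKM. The basal gene Krt5 differed by 1.83-fold between its highest and lowest CSF1 library. With 3 libraries many genes share any given order, and these groupings were made after the values were seen.

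**Figure D4:**
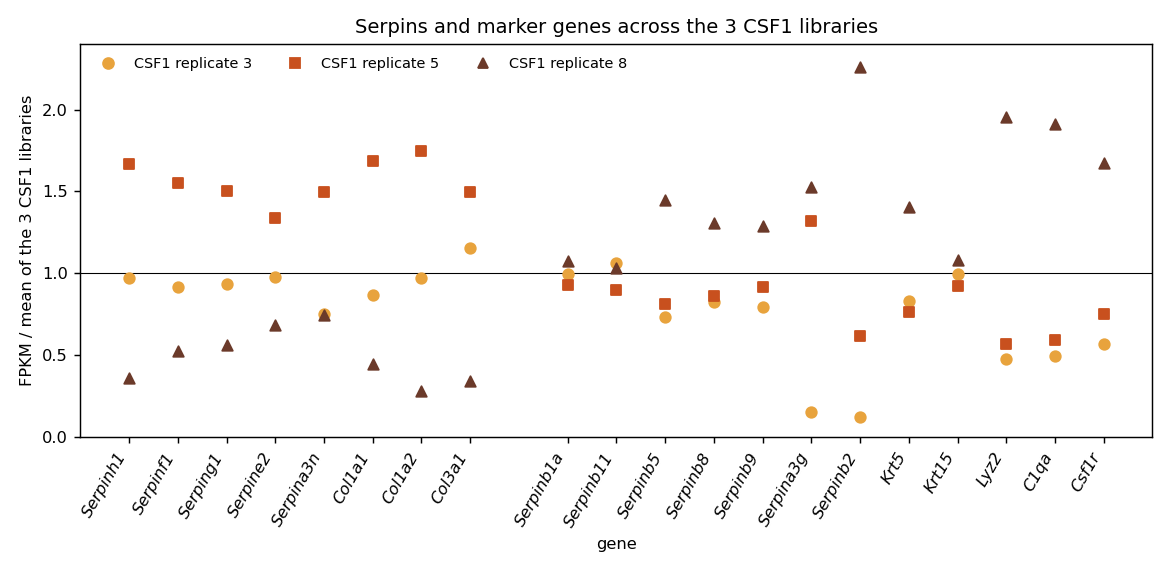
Each point is the FPKM of a gene in 1 CSF1 library divided by its mean over the 3 CSF1 libraries, for 12 serpins and 8 marker genes chosen after their values were seen. Serpinh1, Serpinf1, Serping1, Serpine2 and Serpina3n share with the collagen genes a high replicate 5 and a low replicate 8, while Serpinb2, Serpinb5 and the macrophage genes Lyz2, C1qa and Csf1r are highest in replicate 8.

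Markers of other cell types moved with the groups, and their part in the serpin changes was not tested. In bulk RNA, more cells of a type and more RNA per cell cannot be told apart. Beside the counts that follow, 24.9% of all tested genes were higher and 7.47% were lower. All 16 macrophage markers rose, with a summed level of 823 to 3291 FPKM in CSF1 and 26.04 to 129 FPKM in WT. All 8 tested of 10 fibroblast and smooth muscle markers rose, with sums of 476 to 745 FPKM in CSF1 and 99.6 to 110 FPKM in WT. Of 7 basal markers 6 were tested and 5 rose, with sums of 538 to 844 FPKM in CSF1 and 49.3 to 68.3 FPKM in WT. Trp63, which defines basal cells, was not tested. Its levels were 1.22, 1.12 and 0.338 FPKM in CSF1 and 0.364, 0 and 0.0923 FPKM in WT, with overlapping groups. All 8 proximal luminal markers rose, with sums of 7564 to 10529 FPKM in CSF1 and 279 to 446 FPKM in WT. Endothelial markers had 3 of 8 tested, and all 3 rose, with sums of 12.95 to 17.5 FPKM in CSF1 and 1.14 to 3.60 FPKM in WT. Of 12 lymphocyte markers 3 were tested and 2 rose, with sums of 9.59 to 32.5 FPKM in CSF1 and 1.34 to 2.71 FPKM in WT. Of 9 neutrophil markers 8 were found and 1 was tested, which did not pass, Ngp and Mpo were listed at 0 everywhere, and the sums were 1.40 to 32.3 FPKM in CSF1 and at most 0.133 FPKM in WT.

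The wider protease system was measured through lists. Of 24 serine proteases known as serpin targets, 23 were in the tables and 9 were tested. The test called 6 higher and 1 lower, and 2 missed the threshold, with a median log2 change of 0.94 beside 0.17 for all tested genes. For this list and those below, the shares over all tested genes were 24.9% higher and 7.47% lower. The rises included Tmprss2, a membrane protease of luminal cells, at 84.7, 87.6 and 66.1 FPKM in CSF1 and 27.3, 32.99 and 39.8 FPKM in WT. Proc, the gene of anticoagulant protein C, was the 1 that fell, to 2.87, 2.39 and 0.954 FPKM in CSF1, against 14.5, 15.3 and 18.2 FPKM in WT (log2 change -2.52; limma adjusted p = 0.000206). The classical targets Elane, Prtn3 and Ctsg, proteases of neutrophil granules, did not exceed 0.264 FPKM in any library.

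A list of 4 cysteine cathepsins that serpins can inhibit was tested in full, and 3 rose and 1 did not pass, with a median of 2.65. Ctss, a macrophage cathepsin, was at 124, 138 and 485 FPKM in CSF1, against 1.59, 2.52 and 13.3 FPKM in WT. Ctsl, the most abundant by mean level in WT, was at 275, 380 and 475 FPKM in CSF1 and 227, 291 and 357 FPKM in WT, and did not pass (limma adjusted p = 0.277). Of 14 serpin cofactors and receptors, 10 were tested. The test called 7 higher and 0 lower, and 3 missed the threshold, with a median of 2.63. The largest rise in that list was that of Procr, the endothelial protein C receptor gene, at 19.9, 22.7 and 56.4 FPKM in CSF1, against 1.53, 1.66 and 2.45 FPKM in WT (log2 change 3.42). F3, the tissue factor gene that starts clotting, was at 136, 130 and 184 FPKM in CSF1 and 20.03, 12.1 and 20.5 FPKM in WT (log2 change 3.05). Lrp1, which clears serpin-protease complexes, rose to 4.01, 5.75 and 2.07 FPKM in CSF1, against 0.314, 0.156 and 0.183 FPKM in WT.

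Without any filter on low levels, 37 serpins above 0 FPKM in some library entered the test and 13 were called higher by limma, against 16.2% of the 17920 genes then tested. These comprised 9 of the 11 above and 4 others, among them Serpina3c, Serpina3f and Serpina3m, while Serpina3g and Serpinb9 lost their calls (limma adjusted p = 0.0638 and 0.113). In 19 of the 37 every CSF1 library lay above every WT library, and in 0 every CSF1 library lay below, against 28.6% and 9.45% of those genes.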

How the data were processed

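RNA of sorted luminal cells was sequenced from 3 CSF1 and 3 WT libraries. Per the labels' protocols, the SMART-Seq v4 kit gave the cDNA, and no strand information is stated. Per the submitters' processing notes, reads went through bcl2fastq 1.8.3, TopHat and Cufflinks against mm10. The authors deposited 1 isoform table per library with FPKM and its confidence bounds, and a coverage signal, the deposited mean read depth, which was 1 constant times FPKM. The fragments behind each value are not given.

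FPKM were summed per gene symbol. The 9 genes with a failed Cufflinks status were left out, none of them a serpin. The 10951 genes averaging 1 FPKM or more were tested as log2(FPKM + 1), with no further scaling, by limma 3.58.1 in R 4.3.3 with an intensity trend. The p-values are two-sided and Benjamini-Hochberg adjusted, and 0.05 was the threshold. An exact permutation test of 3 against 3 libraries cannot give a p below 0.1 and was not used. The code was tested on simulated data. No label says what the title numbers mean, and the printed p-values come from a fit that ignores them. Same-numbered libraries deviated together weakly (correlations 0.26, 0.11 and 0.18 over tested genes), so a fit with the number as a block was run as an alternative. The blocked fit changed no serpin call, though it moved the limma adjusted p of Serpinb9 from 0.0486 to 0.00733.

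The members and the lists of markers and partners were chosen with earlier results of these data known, and the motifs after the levels were seen. Every serpin with a mean of at least 1 FPKM is named, those reaching 1 FPKM in some library too, except 1 that is not reported here, and up to 4 genes of a list. Lists lean to rises, since genes low in WT passed the filter only where CSF1 was high. Of the lists not described above, red blood cell markers had 3 tested and 0 called, seminal vesicle markers 1 tested and 1 higher, and secretory products 6 tested and 1 higher. Loci and promoters are from RefSeq GRCm38.p6, the assembly that mm10 names, and transcript sequences from GENCODE.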

Additional observations from a re-analysis of the deposited data

How the results depend on the processing

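Each tested serpin was refitted under up to 22 alternatives, and none of the 13 changed direction in any. Serpina3n, Serpinb11, Serpinb1a, Serpinb5, Serpine2, Serpinf1, Serping1 and Serpinh1 kept their call in all 22. The number of serpins higher in CSF1 was 11 with the replicate block, which changed no call, and 8 with quantile normalization. It was 9 to 11 with 1 library left out, where the members passing the filter changed and numbered 11 to 14. It was 11 of 14, 8 of 13 and 10 of 11 tested members without both libraries numbered 3, 5 and 8, alternatives added after seeing the data. Without both libraries numbered 3, Serpinb9 lost its call (limma adjusted p = 0.113), so the 11 were not the same genes. The number lower was 1 instead of 0 with quantile normalization, median-ratio scaling and rescaling to genes outside the 5 most abundant, each time Serpinb6a. These scalings moved the median log2 change of all genes from 0.17 to -0.16, -0.01 and 0.003. Without both libraries numbered 5, Serpina3g, Serpinb8 and Serpinb9 lost their calls (limma adjusted p = 0.154, 0.0589 and 0.191). Serpina3g, Serpinb2 and Serpinb8 fell below the filter in some alternatives, and depth in FPKM tables limits what can be said of members under 1 FPKM.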
